A study of Mus musculus with 1479 samples.

Results

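The secreted antagonists and the receptors of bone morphogenetic proteins (BMPs) were followed across the mesenchymal cells of the mouse urinary bladder. The 9 genes were chosen by name, as 6 antagonists (Grem1, Bmper, Fst, Fstl1, Twsg1 and Chrdl1) and 3 receptors (Bmpr1a, Bmpr1b and Bmpr2). They make up 9 of the 46517 gene rows of the bladder table. Their levels were described over the 11 clusters that the sample labels carry, and were set beside the clusters that held BMP ligand transcripts.

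The data were Smart-seq2 read counts of 1479 single cells, each sorted into its own well of a plate, with no molecular identifiers. The cells came from adult male mice of 10 to 20 weeks, all backcrossed to C57Bl6/J. In 3 lines a transgene placed a fluorescent protein under the promoter of Pdgfrb (PdgfrbGFP, 54.8% of the cells), Cspg4 (Cspg4dsRED, 13.7%) or Acta2 (Acta2GFP, 8.72%). In PdgfraGFP (9.94%) a nuclear green fluorescent protein was knocked into Pdgfra, and the C57BL6 cells (12.8%) carried no reporter and were sorted with antibodies to PDGFRα or PDGFRβ. A reporter line thus holds cells sorted for that promoter's fluorescence, which was not checked here against the level of the gene itself, and endothelial cells positive for CD31 were gated out. Elastase was added to the digestion of the Acta2GFP tissue, and the methods state that combinations of the strains were also used. The labels name no animal, so the line was taken as the unit of replication, and the spread between lines holds the sort, the plate and the animals together, which cannot be told apart. Cluster 10 is what the study calls vascular mural cells, cluster 5 its sub-epithelial fibroblasts, and the other 9 clusters were analysed as fibroblasts.

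BMPs are secreted dimers that bind a complex of type I and type II receptor serine kinases at the cell surface, and the type I receptor then phosphorylates Smad1, Smad5 and Smad8. Secreted proteins that bind the ligand decide how much of it reaches the receptors. Gremlin, chordin-like and follistatin proteins hold ligand away from the receptor, whereas twisted gastrulation and Bmper bind both ligand and chordin and can lower or raise signalling depending on what else is present. In hollow organs with an epithelial lining, BMPs and their antagonists from the connective tissue are known to act on the overlying epithelium.

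Reads per cell ran from 50276 to 1446059, with a median of 214893. Median reads after removal of the spike-in RNA differed between clusters, from 108489 in cluster 4 to 302447 in cluster 6, with 256725 in cluster 5, 198156 in cluster 8 and 128369 in cluster 10. Levels below are therefore reads per 500000 endogenous reads of a cell, with the mean taken within each line first and then across the lines that had at least 3 cells in the cluster, and the SD is that between lines. Shares of cells were taken after thinning each cell to 50000 reads, which left 1473 cells, and carry exact Clopper-Pearson 95% intervals that cover counting error only. The labels were matched by their markers: the summed level of 9 mural markers was 10595 in cluster 10 (lines from 8133 to 12820) and at most 578 elsewhere, and that of 4 cluster 5 markers was 1815 in cluster 5 (lines from 993 to 3018) and at most 250 elsewhere. All 8 fibroblast markers had reads in every cluster, with a summed level of 892 in cluster 10 and 4942 or more in the others. The study itself names these mural, cluster 5 and fibroblast markers, and the clusters had been made from the same values. The match is therefore no independent check of the labels. Urothelial markers summed to 33.1 in cluster 5, with lines from 0 to 128.4, and their part in the values of cluster 5 was not tested.

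Grem1, which encodes a DAN-family antagonist of BMP2 and BMP4 (chr2:113746164-113758646, minus strand, GRCm38), was almost undetected. It had 6 reads in 6 cells among all 1479 cells, 2 of the reads in cluster 6 and 1 each in clusters 2, 3, 7 and 8. After thinning, 0 of 1473 cells had a read, which allows a share of up to 0.204% of cells with a read by the limit of 3 counts, and of up to 0.25% by the exact interval. Grem1 failed the filter on low counts in all 11 comparisons and was therefore tested in none.

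Twsg1, which encodes the twisted gastrulation protein (chr17:65921972-65951226, minus strand), was highest in cluster 5, at 269.6 ± 132.2 reads per 500000 (SD, n = 4 lines). The next level was 116.2 in cluster 11, and the lowest were 16.1 in cluster 4 and 10.1 in cluster 9. Those 2 clusters are mostly of 1 line, with 17 of 23 and 85 of 91 cells from Cspg4dsRED, in which Twsg1 was low in most clusters (19.2 in cluster 9, 10.3 in cluster 4, 19.4 in cluster 8 and 31.3 in cluster 10). The second line of each, with 4 and 3 cells, was also low, at 21.9 in PdgfrbGFP of cluster 4 and 1.10 in C57BL6 of cluster 9. Twsg1 was lower in 2 of 2 lines on the summed reads of both clusters, with log2 fold changes of -0.93 (SE 1.40, adjusted p = 0.996) and -3.06 (SE 2.30, adjusted p = 1). In the order of the 11 levels, only clusters 2 and 4 were neighbours whose lines did not overlap. In cluster 5 the level was 273.5 in the C57BL6 cells, 82.6 in Cspg4dsRED, 380 in PdgfraGFP and 342.3 in PdgfrbGFP. In the other fibroblast clusters of the same lines it was 82.1, 20.6, 46.9 and 94.7. Cluster 5 was thus higher in 4 of 4 lines, and the ranges overlapped only through Cspg4dsRED, low in both classes, where cluster 5 held 3 cells, 1 of them with a read. The 3 plates that held PdgfrbGFP cells gave levels of 273.1, 353 and 360 in cluster 5 and of 95.2, 112.6 and 80.9 in the other fibroblasts.

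In edgeR's quasi-likelihood test on reads summed per line and class, Twsg1 had a log2 fold change of 1.83 (SE 0.40, adjusted p = 0.0664) in cluster 5 against the other fibroblast clusters. It was not called, since calls in clusters 5 and 10 required an adjusted p below 0.05 together with a fold change of 2 or more on the log2 scale, in either direction. The median over all 16145 genes tested was -0.77 in this comparison, and with that median set to 0 the fold change of Twsg1 was 2.59 with an adjusted p of 0.00467, which is a call. Without Cspg4dsRED, which also was the only line to go when at least 5 cells were asked for, it was 2.02 with an adjusted p of 0.0257, also a call. Over 16 alternatives the adjusted p ran from 0.00119 to 0.331 and was under 0.05 in 11, and the highest values came without PdgfraGFP (0.331) and without PdgfrbGFP (0.283). After thinning, 89.5% of cluster 5 cells had a Twsg1 read (68 of 76, 80.3 to 95.3) against 64.7% of all cells and 14.3% in cluster 9, which is mostly Cspg4dsRED. Shares with at least 10 reads were 77.6% in cluster 5 and 34.4% over all cells.

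Chrdl1, which encodes chordin-like 1 (X:143285674-143394262, minus strand), was highest in clusters 5 and 8, and no neighbours in the order of its levels were apart beyond the range of their lines. Cluster 5 stood at 67.9 ± 58.4 (n = 4 lines) and cluster 8 at 61.8 ± 29.003 (n = 5 lines), against 3.66 in cluster 2, the lowest. Cluster 4 followed with 86.3 in Cspg4dsRED and 0 in PdgfrbGFP, and cluster 1 with 110.3 in Acta2GFP, 45.9 in C57BL6, 0 in PdgfraGFP and 12.9 in PdgfrbGFP. By the mean over all cells (64.1) and without PdgfrbGFP, cluster 4 was the highest. In cluster 5 the level was 139.9 in the C57BL6 cells, 80.9 in Cspg4dsRED, 0.444 in PdgfraGFP and 50.2 in PdgfrbGFP, compared with 19.5 to 33.9 in the other fibroblasts of these lines. The 22 PdgfraGFP cells of cluster 5 were therefore near 0, while the other lines lay above their own remaining fibroblasts. These means rest on few cells. In Cspg4dsRED 1 of 3 cells had a read, at 242.6, and in C57BL6 the median cell was at 1.07 and the highest at 992. In PdgfrbGFP 23 of 36 cells had a read, with the median cell at 2.58. In cluster 8, Acta2GFP was at 83.4, C57BL6 at 82.7, Cspg4dsRED at 13.99, PdgfraGFP at 73.3 and PdgfrbGFP at 55.4. The rest of those fibroblasts, without clusters 5 and 10, lay between 11.1 and 28.1, so that 4 of 5 lines were higher in cluster 8 and Cspg4dsRED was not. The log2 fold change was 0.82 (SE 1.303, adjusted p = 0.885) for cluster 5 and 1.53 (SE 0.52, adjusted p = 0.509) for cluster 8. For cluster 8, limma-voom and DESeq2 called the gene and edgeR did not.

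Bmper, which encodes a BMP-binding endothelial regulator with chordin-like repeats (chr9:23223076-23485200, plus strand), was a gene of few cells. Its 1039 reads lay in 51 cells, and the 10 richest cells held 69.8% of them. Cluster 8, with 12.3% of the cells, held 82.7% of the reads. By line, Acta2GFP stood at 70.6 in cluster 8, C57BL6 at 0, Cspg4dsRED at 4.27, PdgfraGFP at 28.3 and PdgfrbGFP at 9.30, a mean of 22.5 ± 28.96 (n = 5 lines). In the other fibroblasts of these lines it lay between 0 and 1.08. Cells with a read numbered 4 of 11, 0 of 18, 1 of 14, 5 of 19 and 12 of 120 in that order of lines, so Bmper was read in a minority of the cluster 8 cells of 4 lines and in none of C57BL6. The next level, 3.83 in cluster 4, came from Cspg4dsRED. In cluster 5 there was 1 Bmper read among 76 cells against 764 in the other fibroblasts of the same lines, a ratio of 0.0204 per endogenous read (0.000516 to 0.114). This interval takes each read as independent, which reads without molecular identifiers are not, and leaves out the spread between cells. Clusters 1, 2 and 9 had 0 Bmper reads and cluster 11 had 1, so near absence was not particular to cluster 5. The log2 fold change for cluster 8 was 6.87 (SE 2.23, adjusted p = 0.509), and that for cluster 5 had an adjusted p of 0.229.

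Fst, which encodes follistatin, best known for binding activins and also able to bind BMPs (chr13:114452290-114458951, minus strand), had more of its 8548 reads in cluster 8, 44.05%, than in any other cluster. Its exons overlap Gm47040 on the opposite strand, and reads of both genes cannot be told apart where they overlap. In cluster 8, Acta2GFP was at 33.5, C57BL6 at 4.14, Cspg4dsRED at 15.3, PdgfraGFP at 73.02 and PdgfrbGFP at 43.04. The other fibroblasts of these lines stood at 1.72, 2.46, 3.801, 4.47 and 8.85, so the mean over cells was higher in cluster 8 in 5 of 5 lines, and the ranges overlapped through C57BL6. On the summed reads that were tested, cluster 8 was higher in 4 of 5. The log2 fold change was 2.66 (SE 0.87, adjusted p = 0.508 in edgeR), and DESeq2 and limma-voom called it. The highest mean of all, 36.7 ± 72.6 in cluster 10, came from 1 of 3 C57BL6 cells, at 436.7 reads per 500000, and the other 3 lines of cluster 10 were at 1.00 or below. After thinning, 31.9% of cluster 8 cells had an Fst read (58 cells, 25.2 to 39.2), against 12.5% of all cells, 5.26% in cluster 5 and 2.40% in cluster 10.

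Within cluster 8, Fst was detected in 10 of the 17 cells with a thinned Bmper read (58.8%, 32.9 to 81.6) and in 48 of the cells without one (29.1%, 22.3 to 36.7). By line, Fst was read in 2 of 4 Bmper cells in Acta2GFP, 1 of 1 in Cspg4dsRED, 4 of 4 in PdgfraGFP and 3 of 8 in PdgfrbGFP, where 5 of 11, 2 of 14, 8 of 19 and 41 of 120 of all cluster 8 cells had it. The shares were close in Acta2GFP and PdgfrbGFP and apart in PdgfraGFP. Split by Chrdl1 instead, Bmper was read in 4 of 57 cells with Chrdl1 and in 13 of the other cells (7.02% and 10.4%), and Fst in 16 and 42 of them (28.1% and 33.6%). The intervals of each of these pairs overlapped.

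**Figure D1:**
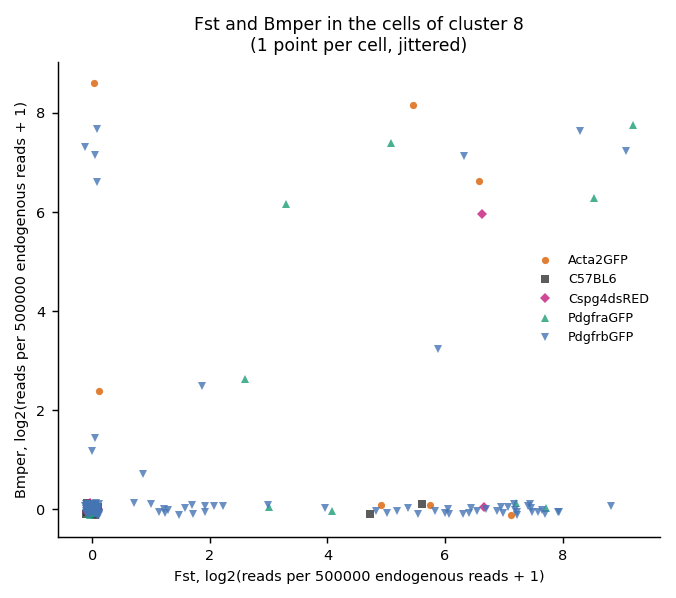
Each point is 1 cell of cluster 8, with Fst on the x axis and Bmper on the y axis, both as log2(reads per 500000 endogenous reads + 1) with a small jitter, and with colour and shape for the mouse line. Most cells sit at the origin, a row along the x axis has Fst alone, and the Bmper cells divide between those with Fst at upper right and those without at upper left.

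Fstl1, which encodes a follistatin-like glycoprotein reported to bind BMP4 (chr16:37776873-37836514, plus strand), was the most widely detected of the 9 genes. A thinned read was found in 97.3% of all cells, and at least 10 thinned reads in 90.8% of all cells and 48.8% of cluster 10 (61 cells, 39.8 to 57.9). Its level per kilobase of exon ran from 47.1 in cluster 10 to 197.3 in cluster 3, above that of every other member in each of the 11 clusters. Cluster 10 stood at 187.6 in Acta2GFP, 318.4 in C57BL6, 159.4 in Cspg4dsRED and 260.9 in PdgfrbGFP. The fibroblasts of these lines stood at 1167, 690, 550 and 825 in that order, so the mural cells were lower in 4 of 4 lines and the ranges did not overlap. The log2 fold change was -1.76 (SE 0.36, adjusted p = 0.00442), which passed the p threshold and missed the fold limit of 2. The median over all genes tested in this comparison was -0.93, and with that median set to 0 the fold change of Fstl1 was -0.83 with an adjusted p of 0.206. Within PdgfrbGFP, the 3 plates gave 484, 238.8 and 239.4 in cluster 10 and 786, 1100 and 703 in the fibroblasts without cluster 5. In cluster 8 Fstl1 lay below the other fibroblasts in 5 of 5 lines, at a log2 fold change of -0.54 (SE 0.15, adjusted p = 0.489). The median over all genes tested was -0.56 there, and with it set to 0 the fold change was 0.016 (adjusted p = 0.994).

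**Figure D2:**
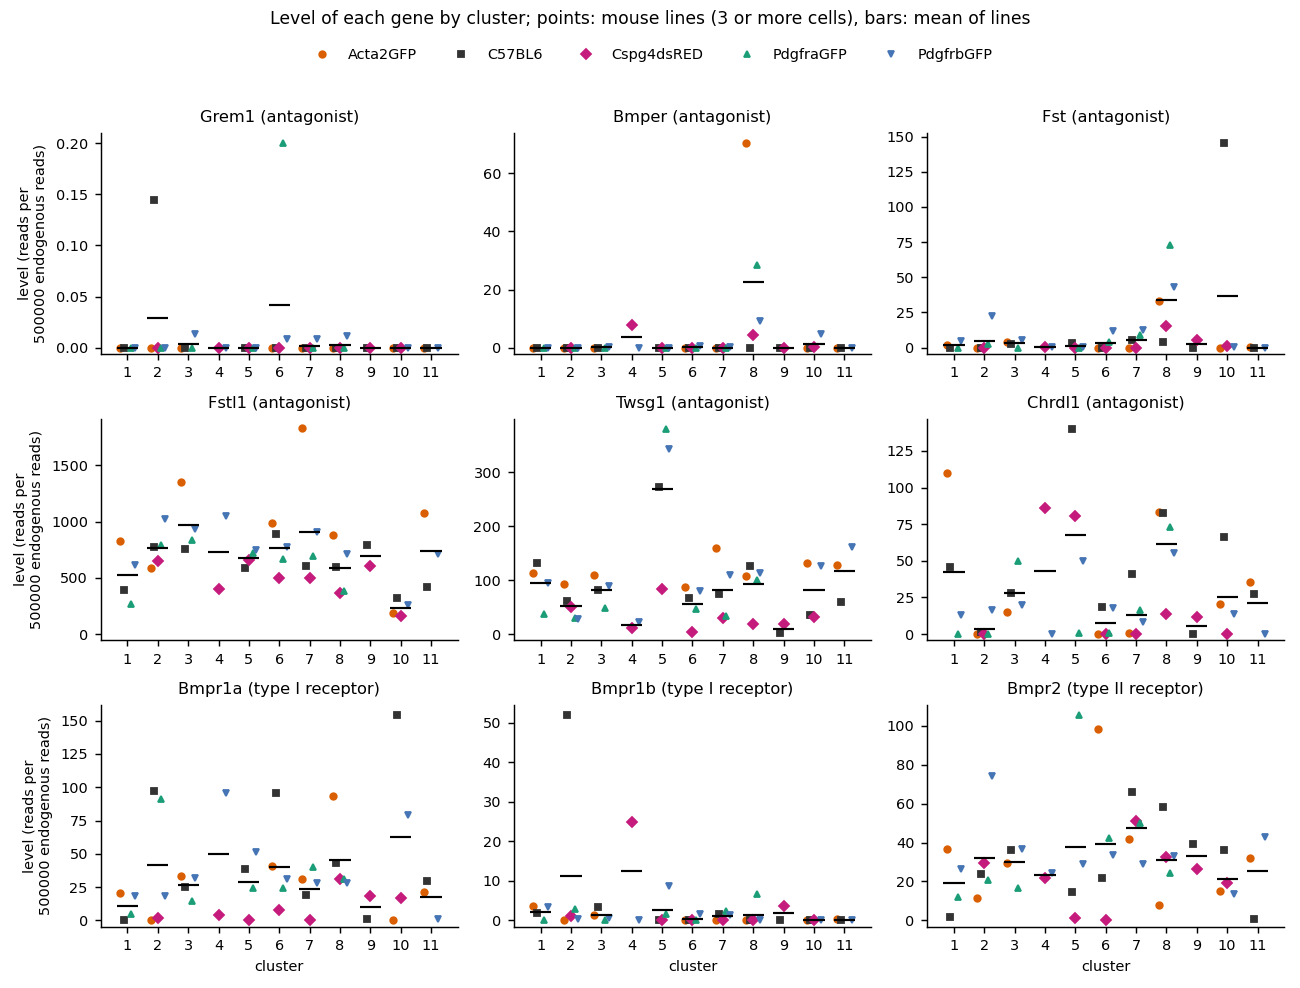
Levels of the 9 genes in reads per 500000 endogenous reads (y axis, a separate linear scale for each gene) in clusters 1 to 11 (x axis). Points are mouse lines with at least 3 cells in the cluster and bars are their means. Twsg1 stands highest in cluster 5 and Bmper in cluster 8, Fstl1 is lowest in cluster 10, and single lines set the highest points of Fst in cluster 10 and of Bmpr1b in cluster 2.

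The 3 receptor genes were low, with Bmpr1a and Bmpr2 spread over the clusters and Bmpr1b in few cells. Per kilobase of exon, Bmpr1a, a type I receptor (chr14:34410734-34503341, minus strand), ran from 1.54 in cluster 9 to 9.88 in cluster 10. Bmpr2, the type II receptor with a long cytoplasmic tail (chr1:59763400-59879014, plus strand), ran from 1.06 in cluster 1 to 2.65 in cluster 7. Bmpr1b, the other type I receptor (chr3:141837136-142169425, minus strand), ran from 0.00302 in cluster 10 to 2.08 in cluster 4. That highest value came from 1 of 17 Cspg4dsRED cells, with 84 reads and 413.3 reads per 500000, while the 4 PdgfrbGFP cells of cluster 4 had 0. No neighbours in the order of clusters were apart beyond the range of their lines for any of the 3 receptors. Exons of Bmpr1a overlap Gm17110 on the opposite strand, so some of its reads cannot be assigned with certainty.

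The level of Bmpr1a in cluster 10 was 0.653 in Acta2GFP, 153.9 in C57BL6, 17.04 in Cspg4dsRED and 79.3 in PdgfrbGFP, a mean of 62.7 ± 69.6 reads per 500000. These values span those of the fibroblasts of the same lines, 15.9 to 37.6, and the log2 fold change was 0.02 (SE 1.29, adjusted p = 0.995). Bmpr1b was read in 76 cells, with 64.03% of its 1565 reads in 10 cells. In cluster 10 it had 2 reads, both in 1 cell, against 1484 in the fibroblasts of the same lines, a ratio of 0.0234 per endogenous read (0.00283 to 0.0847), an interval with the same limit as that of Bmper. Its level there was at most 0.0720 and in the pooled fibroblasts of each line at least 0.735, without overlap, and its adjusted p was 0.0695. Near absence was not particular to cluster 10. Fibroblast cluster 11 had 2 Bmpr1b reads in 51 cells, with 0.236 in Acta2GFP and 0 in C57BL6 and PdgfrbGFP. Cluster 8 was at 0 in Acta2GFP, C57BL6 and Cspg4dsRED, 0.132 in PdgfrbGFP and 6.58 in PdgfraGFP. Bmpr2 was at 14.6 in the C57BL6 cells, 1.16 in Cspg4dsRED, 105.2 in PdgfraGFP and 28.9 in PdgfrbGFP in cluster 5, on both sides of the 27.9 to 39.8 of the other fibroblasts. In cluster 10 Bmpr2 lay below the fibroblasts in 4 of 4 lines, with a log2 fold change of -0.82 (SE 0.99, adjusted p = 0.725). With the median of all genes, -0.93, set to 0 it was 0.11 (adjusted p = 0.981).

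A type I receptor and Bmpr2 were read in the same cell in 18.6% of all thinned cells (16.6 to 20.7). The share was 25.9% in cluster 3 and 23.7% in cluster 5, and was below 10% in clusters 4, 9 and 10, at 9.52%, 5.49% and 8.00%. At least 1 type I receptor was read in 38.2% of all cells, and Bmpr1a and Bmpr1b were read together in 14 cells. At least 3 of the 6 antagonists were read in 47.8% of cluster 8 cells and 34.2% of cluster 5 cells, against 21.9% of all cells, 9.52% in cluster 4, 4.80% in cluster 10 and 3.30% in cluster 9. The same 3 clusters were thus lowest in both measures. Clusters 9 and 10 also had the fewest genes per cell apart from cluster 4, with medians of 3135 and 3188, and the part of that in these shares was not tested beyond the thinning.

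Since reads can pass between wells that share a plate row or column, each share was also split by whether such a neighbour had at least 10 thinned reads of the gene. Among cells with fewer than 10 reads, a Twsg1 read was found in 47.5% of those with such a neighbour and in 6.67% of the 30 without one. The corresponding shares were 12.4% and 4.42% for Fst, 2.57% and 0.630% for Bmper, 10.9% and 6.43% for Chrdl1, 28.9% and 17.9% for Bmpr1a and 35.01% and 24.4% for Bmpr2. Shares at 1 read are thus higher beside a rich well for all 6 of these genes over all clusters. The split does not hold cluster, line or plate constant. Within cluster 10 it went the other way for Bmpr1a (17.2% and 21.1%) and Bmper (0% and 1.09%), and the same way for Twsg1, Fst, Chrdl1 and Bmpr2. The part of rich neighbours in differences between clusters was not tested.

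Across the design, none of the 9 genes was called by edgeR in any of the 11 comparisons. In cluster 5 against the other fibroblast clusters, 0 of the 8 members tested were called, where 0.762% of all genes tested were, and 2 of the 8 (Bmper and Twsg1) had an unadjusted p under 0.05, as did 13.2% of all genes. In cluster 10 against the fibroblast clusters the count was 0 of 8 against 6.2% of all genes, with Bmpr1b and Fstl1 among the 22.1% under 0.05 unadjusted, and with a fold limit of 1 in place of 2 Fstl1 alone was called where 6.35% of all genes were. In cluster 8 against the rest without clusters 5 and 10 it was 0 of 8 against 0.0183%, with Bmper, Fst, Fstl1 and Chrdl1 under 0.05 unadjusted, as were 8.92% of all genes. The remaining 8 fibroblast clusters had 0 called of 8 members tested, or of 7 in cluster 9, against 0.0433% of all genes in cluster 1, 0.00647% in cluster 2, 0.00608% in cluster 3, 0.746% in cluster 4, 0.0246% in cluster 6, 0.407% in cluster 7, 0.0454% in cluster 9 and 0.0209% in cluster 11. Members under 0.05 unadjusted numbered 2 in cluster 1 (beside 9.26% of all genes), 2 in cluster 2 (23.3%), 2 in cluster 3 (6.11%), 0 in cluster 4 (3.75%), 3 in cluster 6 (9.01%), 2 in cluster 7 (10.2%), 0 in cluster 9 (1.29%) and 1 in cluster 11 (5.35%). The median log2 fold change of the members tested was -0.76 in cluster 5, -1.47 in cluster 10 and 0.61 in cluster 8, beside -0.77, -0.93 and -0.56 over all genes tested. Over all 11 comparisons, DESeq2 made 8 calls among the members and limma-voom 2. The DESeq2 calls were Fst in cluster 5 (1 of 8, beside 8.68% of all genes), Bmpr1b in cluster 10 (1 of 8, beside 18.6%), Chrdl1 in cluster 2 (1 of 8, beside 14.1%), Fst and Chrdl1 in cluster 6 (2 of 8, beside 2.9%), and Bmper, Fst and Chrdl1 in cluster 8 (3 of 8, beside 4.78%). The limma-voom calls were Fst and Chrdl1 in cluster 8 (2 of 8, beside 0.536%). These comparisons share cells, since each cluster is part of the rest for the others, and the clusters had been made from the same values, so the tests say only whether lines repeat a difference and give no independent support to the clusters.

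**Figure D3:**
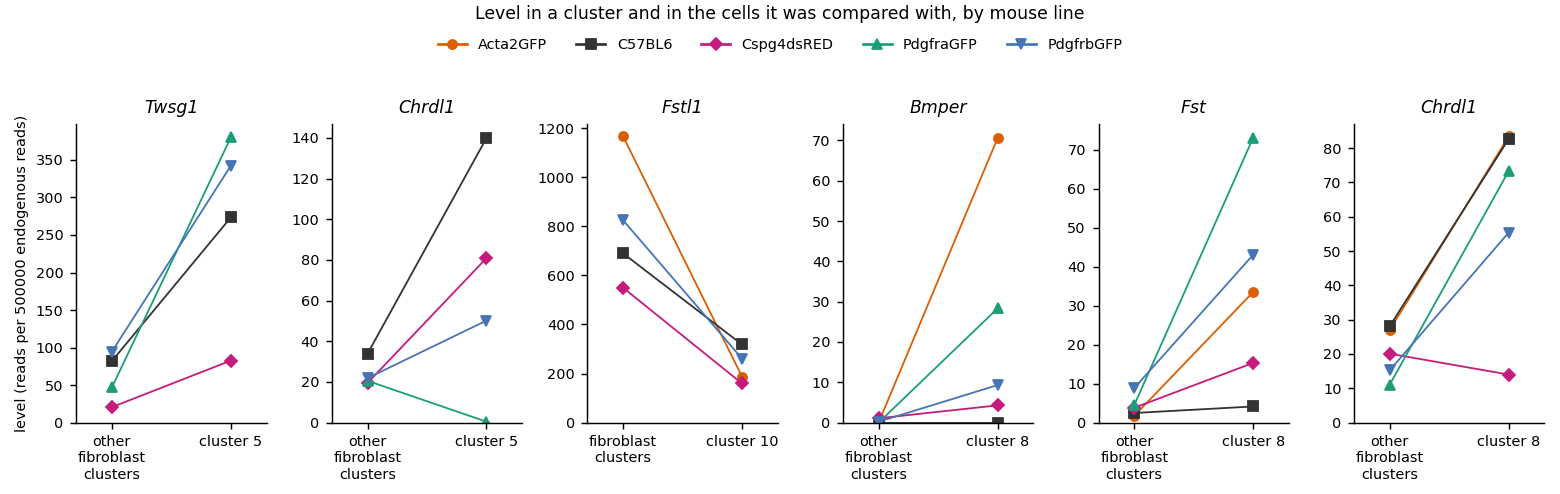
Levels in reads per 500000 endogenous reads (y axis, linear, from 0) of 5 genes in the cells compared with (left of each panel) and in cluster 5, 10 or 8 (right), with 1 line drawn for each mouse line that entered the comparison. Twsg1 in cluster 5 is higher in 4 of 4 lines, Fstl1 in cluster 10 lower in 4 of 4 and Fst in cluster 8 higher in 5 of 5 by these means over cells (4 of 5 on summed reads), while Chrdl1 goes the other way in PdgfraGFP for cluster 5 and in Cspg4dsRED for cluster 8.

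**Figure D4:**
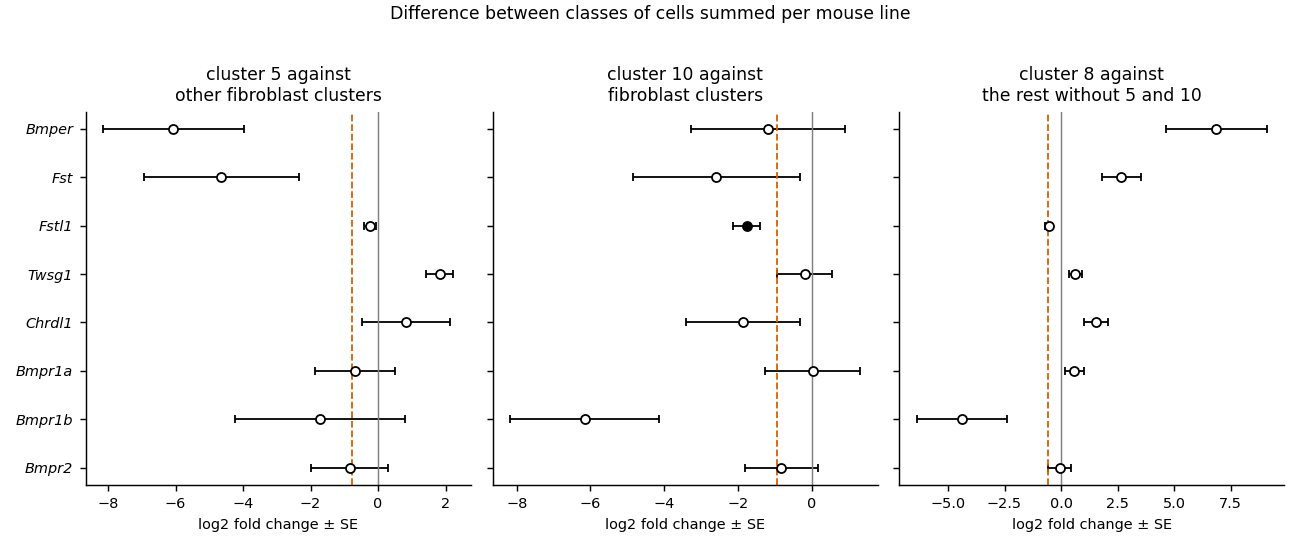
Log2 fold changes with their standard errors (x axis) of the 8 members that passed the count filter, in clusters 5, 10 and 8. The filled point has an adjusted p under 0.05, the dashed line is the median over all genes tested and the solid line is 0. Fstl1 in cluster 10 is the filled point, and Bmper, Fst and Bmpr1b have the widest bars.

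Among the ligands, Bmp5 rose in cluster 5 with a log2 fold change of 6.85 (SE 0.77, adjusted p = 0.00111), Bmp7 with 6.13 (SE 0.90, adjusted p = 0.00626) and Bmp2 with 4.48 (SE 0.86, adjusted p = 0.0324). Their levels there were 296.4 ± 140.7, 138.6 ± 113.4 and 73.3 ± 21.4, against 3.06, 3.20 and 2.95 in the other fibroblasts, and the ranges of the lines did not overlap. Bmp7 in cluster 5 was at 307.5 in 3 Cspg4dsRED cells and at 63.7 to 93.2 in the other lines, and its mean was 82.3 without Cspg4dsRED. The next cluster for Bmp7 was cluster 4, at 63.4 in Cspg4dsRED and 21.3 in PdgfrbGFP, whose lines lay apart from those of cluster 7, the next in order. Bmp5 and Bmp7 were among the markers that check cluster 5, so their rise is part of what defines it. Gdf10, a divergent member of the family also called BMP3b, fell in cluster 5 by 6.38 on the log2 scale (SE 0.84, adjusted p = 0.00307). It was highest in cluster 8, at 1071 ± 625 against 147.9 in the other fibroblasts, with 5 of 5 lines higher and no overlap, and was not called there. Bmp4 was read in every fibroblast cluster, from 41.7 in cluster 4 to 458 in cluster 5, and was at 10.3 in cluster 10. The value of cluster 4 is the mean of 0 in the 17 Cspg4dsRED cells and 83.4 in the 4 PdgfrbGFP cells. Bmp3 was highest in cluster 5 at 99.3, Bmp6 in cluster 3 at 36.9, Gdf6 in cluster 11 at 36.8 and Bmp8b in cluster 4 at 8.81. The highest cluster of the last 3 changed when a line was left out, an alternative chosen after the data were seen. Gdf6 in cluster 11 was at 93.1 in 3 C57BL6 cells, 16.4 in Acta2GFP and 0.878 in PdgfrbGFP, and without C57BL6 it was at 8.62 there and highest in cluster 3, at 10.4. Bmp8b in cluster 4 was at 15.3 in the 4 PdgfrbGFP cells and 2.27 in Cspg4dsRED, and it was highest in cluster 11 without PdgfrbGFP (6.69) or without Acta2GFP (8.91). Bmp6 was highest in cluster 9, at 52.97, without C57BL6.

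Summed per kilobase of exon, the 16 BMP ligands stood at 347 ± 25.1 in cluster 5 and 314.1 ± 79.5 in cluster 8, followed by 212.99 in cluster 1, and were at 17.1 ± 10.1 in cluster 10. The 5 antagonists other than Fstl1 summed to 62.6 ± 23.1 in cluster 5, 39.2 ± 17.8 in cluster 8, 27.7 in cluster 10 and 3.39 in cluster 9. With Fstl1, which made up most of it in each cluster, the sum of all 6 was instead highest in cluster 3, at 218.1 ± 56.4, followed by 203.5 in cluster 7 and 199.98 in cluster 5, with 158.5 in cluster 8 and 74.8 in cluster 10. The ligand sum and the sum of the member antagonists were thus both highest in clusters 5 and 8 only with Fstl1 left out. Secreted antagonists outside the 9 genes are not part of these sums, so nothing follows for antagonists as a whole. Twsg1 made up most of the sum without Fstl1 in cluster 5, while Fst, Bmper and Chrdl1 joined it in cluster 8. The 3 receptors summed to between 3.17 in cluster 1 and 11.2 in cluster 4. Per kilobase, Gdf10 supplied 205.5 of the ligand sum of cluster 8, and Bmp4 supplied 203.8 of that of cluster 5, with Bmp5 next at 73.6.

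**Figure D5:**
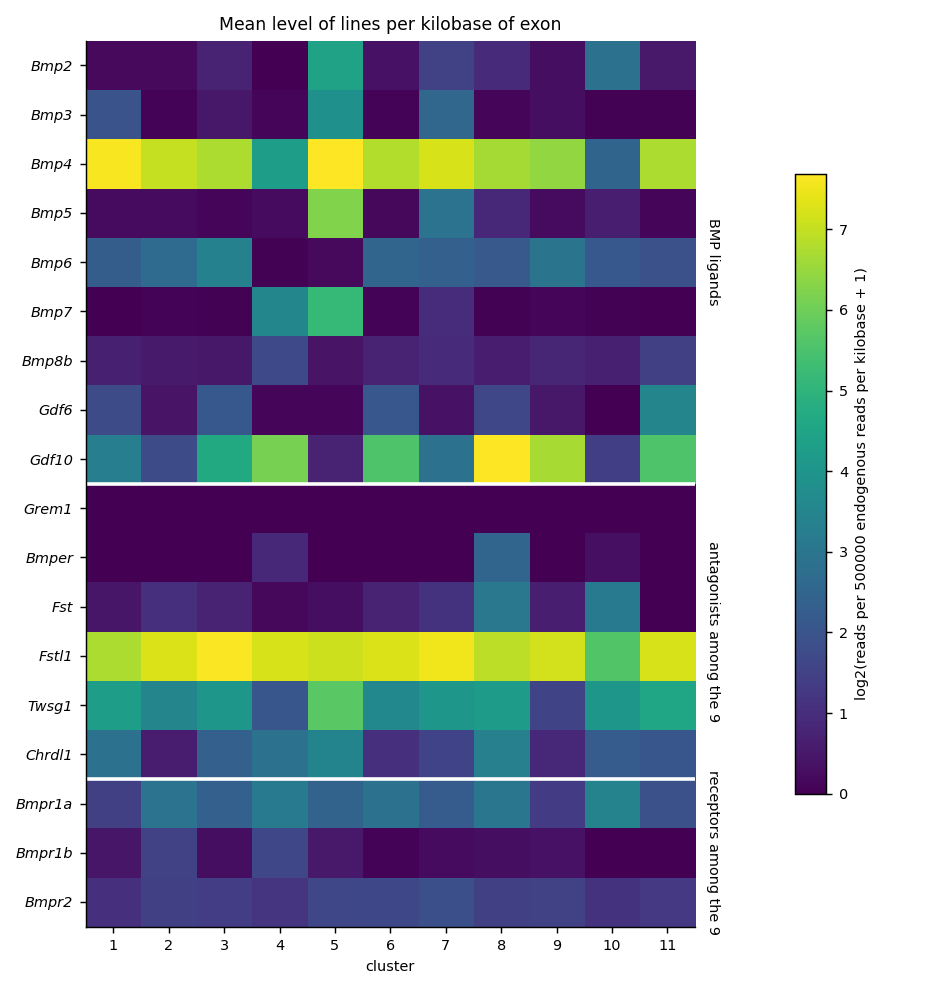
Mean level over lines per kilobase of exon, as log2(reads per 500000 endogenous reads per kilobase + 1) in colour, for the BMP ligands with a level of at least 1 in a cluster and the 9 antagonists and receptors (rows) in clusters 1 to 11 (columns). Bmp2, Bmp3, Bmp5 and Bmp7 are brightest in cluster 5 together with Twsg1, Gdf10 is brightest in cluster 8, and the receptor rows are dim throughout.

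At the level of cells, cluster 5 held ligand and antagonist together. A Twsg1 read was present in 61 of its 67 cells with a Bmp5 read (91.04%, 81.5 to 96.6) and in 7 of the 9 without. It was also present in 33 of 34 cells with a Bmp7 read and in 35 of 42 without, so that detection of Twsg1 was common in both kinds of cell. Chrdl1 was present in 24 of the 67 Bmp5 cells (35.8%, 24.5 to 48.5). Bmpr1a was read in 17 of 34 cells with Bmp7 and in 12 of 42 without, and Bmpr2 in 17 of 34 and 21 of 42, with overlapping intervals. Bmp5 and Bmper were read together in 0 cells of all 1473. In cluster 8, Bmper was read in 11.03% of the cells with a Gdf10 read (6.44 to 17.3) and 2.70% of those without (0.0684 to 14.2), and in 6.96% of the cells with Bmp4 (3.53 to 12.1) and 6 of the 24 without, again with overlapping intervals.

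In cluster 5 against the other fibroblasts, 3 of the 9 BMP ligands tested were called higher and 1 lower, beside 0.762% of all genes called in either direction, and 0 were called in either direction of the 4 activin-type ligands, 12 other receptors, 8 Smads, 11 target genes and 5 convertases and proteases tested. The 0 called by edgeR had 1, 3, 0, 3 and 1 genes with an unadjusted p under 0.05 in that order of lists, beside 13.2% of all genes.

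In cluster 10, where 6.2% of all genes were called and 22.1% had an unadjusted p under 0.05, 3 of the 8 other antagonists tested fell and 0 rose. The log2 fold changes were -7.83 for Kcp (SE 2.02, adjusted p = 0.0248), -6.94 for Chrd, the founding chordin (SE 1.35, adjusted p = 0.00296), and -3.13 for Nbl1, a DAN-family antagonist (SE 0.43, adjusted p = 8.1e-05). The levels of Nbl1 were 255.5 in Acta2GFP, 31.6 in C57BL6, 315.3 in Cspg4dsRED and 182.2 in PdgfrbGFP against 1107 or more in the fibroblasts. Of the ligand list, 3 of the 9 tested fell, Gdf6 with -6.90, Bmp4 with -5.56 and Gdf10 with -4.92. Bmp2 was not called (log2 fold change 0.74, SE 1.70, adjusted p = 0.873), though cluster 10 had its second highest level. It stood there at 8.60 in Acta2GFP, 0 in C57BL6, 40.4 in Cspg4dsRED and 40.2 in PdgfrbGFP, against 3.77, 6.66, 3.25 and 8.73 in the fibroblasts, and a Bmp2 read was found in 21.6% of cluster 10 cells (14.7 to 29.8) and 10.6% of all cells. Among 12 other receptors tested, 2 fell, namely Acvrl1, a type I receptor best known from endothelium, with -4.33 and Tgfbr2 with -2.54. Of the proteases, Bmp1, a chordin-cleaving metalloprotease, and the convertase Pcsk5 fell, with -4.45 and -6.11, which are 2 of the 4 tested. Of 11 target genes, 1 was called, Id2, which rose by 2.61 (SE 0.67, adjusted p = 0.0241), and 5 had an unadjusted p under 0.05 (Id2, Id3, Id4, Msx2 and Smad6). The median log2 fold change of the 11 was 1.83, beside -0.93 over all genes. No Smad of 8 and no activin-type ligand of 4 was called by edgeR, with 4 and 1 under an unadjusted 0.05. Depth per cell was lower in cluster 10, as given above, and its part in these differences was not tested.

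The genes whose levels ran most like each member over the 11 clusters were found by Pearson's r of log2(level + 1) among 12995 genes. They were Col6a6 (r = 0.96) and BC025920 (0.93) for Bmper, Ier3 (0.93) and Phyhipl (0.92) for Fst, and Cmip (0.95) and Pde9a (0.95) for Fstl1. For Twsg1 they were Mnat1 (0.94) and Mink1 (0.93), and for Chrdl1 the predicted genes Gm11769 and Gm15441 (both 0.96). The receptors were matched by Ift81 (0.94) and Fbxw7 (0.91) for Bmpr1a, Ift172 (0.96) and Rnf4 (0.94) for Bmpr1b, and Rbck1 (0.95) and Lrrc14 (0.85) for Bmpr2. These values are descriptions over 11 points that share lines and plates.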

How the data were processed

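The authors deposited raw read counts, 1 row per gene and 1 column per cell, made from single reads trimmed with trim galore, mapped to GRCm38 (mm10) with TopHat2 and counted with featureCounts. The annotation release and the strand setting are not given in the sources used here, and reads called doublets were removed with samtools. Gene symbols, exon lengths and coordinates came from GENCODE M21 for 46005 of the 46517 gene rows. The 92 ERCC rows were left out of library sizes, and 0 columns were left without a sample. Counts were summed per mouse line and class, in lines with at least 3 cells in both, and tested with edgeR 4.0.16 (TMM, filterByExpr, quasi-likelihood, line as a block, R 4.3.3), with Benjamini-Hochberg adjustment over all genes tested. The fold limit was 2 on the log2 scale for clusters 5 and 10 and 1 for the other 9. P-values measure only the spread between lines, whose independence is an assumption. DESeq2 1.42.0, limma 3.58.1, other scalings and filters, and leaving out each line were alternatives. In simulated counts, of 100 genes changed by 4 on the log2 scale 30 had an adjusted p under 0.05 for cluster 5 and 19 for cluster 10. Of 100 changed by 2 there were 0 and 1. No fold limit was applied to these simulated counts, so they are not calls as defined above. Named were all members, ligands with a level of at least 1, in clusters 5 and 10 up to 10 called genes of the other lists by fold change, and the 2 genes most like each member. The members and lists were chosen with earlier results of these data known. Results of 1 gene of the antagonist list are not reported here.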

Additional observations from a re-analysis of the deposited data

Results flagged for a closer look

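Of 50 groups of 4 or 5 lines with a highest level of at least 5, 7 had 1 line far from the others by Dixon's criterion, and chance flags about 1 in 20 groups. Levels are reads per 500000 endogenous reads. Fst stood at 22.2 in PdgfrbGFP of cluster 2, with 2.78 the next line, and at 145.6 in C57BL6 of cluster 10, with 1.00 the next. Twsg1 in cluster 8 was low in Cspg4dsRED, at 19.4, with 100.2 the next. Chrdl1 in cluster 2 was at 16.7 in PdgfrbGFP, with 1.59 the next. Bmpr1a in cluster 8 was at 93.2 in Acta2GFP, with 43.05 the next. Bmpr1b was at 51.9 in C57BL6 of cluster 2, with 2.97 the next, and at 6.58 in PdgfraGFP of cluster 8, with 0.132 the next.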

How the results depend on the processing

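Classes were paired by mouse line, a block in the main fit. By replicate number, no paired analysis was possible because the numbers only name cells. Where counts of calls moved, the cause was not tested. In cluster 5, members called went from 0 to 1 under DESeq2, with the median gene at 0 and with at least 5 cells, and ran from 0 to 1 without each line, 1 without Cspg4dsRED. The percent of tested genes called went from 0.762 to 8.68 (DESeq2), 2.76 (limma-voom), 0.697 of a longer list (no filter), 3.001 (plate and line sums), 1.195 (ERCC scaling), 2.199 (thinned), 2.43 (no line block), 1.31 (at least 5 cells) and 0.559 to 1.31 without each line. In cluster 10, members called went from 0 to 1 under DESeq2, no filter, plate and line sums, thinned counts, no line block and a fold limit of 1, and to 2 under ERCC scaling. The percent called went from 6.2 to 18.6 (DESeq2), 10.01 (limma-voom), 15.9 (plate and line sums), 6.35 (a fold limit of 1) and 2.88 to 5.79 without each line. It is not given here for no filter, thinned counts, no line block and ERCC scaling, nor for the median gene at 0 in cluster 5. The counts of members in those settings therefore cannot be set beside all genes. In the 9 other comparisons, members called went from 0 to 6 (DESeq2), 2 (limma-voom), 3 (plate and line sums, 8 comparisons), 3 (median gene at 0) and 2 (ERCC), and the percent called from 0.1401 to 3.696, 0.412, 1.484, 1.082 and 2.91 in that order, with 0.257 (thinned), 0.318 (no line block) and 0.0382 to 0.103 without each line. Some fits of clusters 4, 9 and 11 that leave out a line could not be made with too few lines left.

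Fold changes changed sign as follows, all without a call in the sign shown. In cluster 5, Fstl1 was 0.53 with the median gene at 0. Bmpr1a was 0.19 with plate and line sums, 0.086 with the median gene at 0 and 0.18 with at least 5 cells, and -1.33 to 0.18 without each line. Bmpr1b was 0.98 with plate and line sums and -4.22 to 0.10 without each line. Bmpr2 was 0.35 with no line block, 0.12 with at least 5 cells and -1.82 to 0.12 without each line. In cluster 10, Bmper was 0.30 under DESeq2, 0.10 under limma-voom and -3.20 to 0.41 without each line, and Fst was 2.47 with no line block. Twsg1 was 0.085 under median-of-ratios scaling, 0.085 under DESeq2, 0.75 with the median gene at 0, 0.36 with at least 5 cells and -0.50 to 0.36 without each line. Bmpr1a was -0.17 with no filter, -0.80 under ERCC scaling, -0.12 thinned, -0.81 with at least 5 cells and -0.81 to 1.04 without each line, and Bmpr2 was 0.11 with the median gene at 0. In cluster 8, Fstl1 was 0.016 with the median gene at 0. Bmpr2 was 0.084 under median-of-ratios scaling, 0.086 under DESeq2, 0.21 under limma-voom, 0.073 with plate and line sums, 0.50 with the median gene at 0, 0.22 with no line block and -0.32 to 0.33 without each line.

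The cluster of highest level was kept by 4 of 9 members with the mean over all cells, 4 with ERCC scaling and 4 to 8 without each line. That of highest share was kept by 3 of 8 with at least 10 reads and 3 unthinned. Twsg1 stayed highest in cluster 5 and Bmper in cluster 8 under all 7 level alternatives, and Fst moved from cluster 10 to cluster 8 under 3 of them, the mean over all cells, ERCC scaling and without C57BL6.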
